A study of Mus musculus with 21 samples.

Results

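The genes that encode collagen chains were followed in bulk RNA-seq of mouse craniofacial mesenchyme. Members were taken by symbol: of 24594 genes in the count tables, 44 had a symbol made of Col, a type number, the letter a and a chain number, and 40 of these form the set described here, the other 4 being not analysed here. By the known structure of their proteins the 40 genes fall into 8 fibrillar chains, 6 chains of basement membrane type IV, 6 of beaded-filament type VI, 8 FACIT chains (fibril-associated collagens with interrupted helices), 4 transmembrane chains, 3 short chains of types VIII and X, 2 multiplexins, the anchoring-fibril chain Col7a1, and 2 others. The study had 21 libraries in 7 groups of 3, in a pair of tables that were not merged. The stage series holds cranial neural crest cells (CNCCs) labelled WT that were sorted by FACS out of Wnt1::Cre;ROSARFP embryos. They came from PA2, the second pharyngeal arch, at E10.5, E meaning embryonic day, and from the pinna or outer ear flap at E12.5 and E14.5. In the genotype series, PA2 and the third arch (PA3) were taken at E10.5 from WT and from HIRE1del/del embryos, called HIRE1del here, which lack both copies of HIRE1, a distal super-enhancer region that contacts Hoxa2. The Cre of the stage series marks descent from Wnt1-expressing crest, so any crest derivative can be in the sort. No sort was stated for the genotype series, although its labels also read cranial neural crest cells. Embryos of both sexes were pooled, and tissue was loosened with trypsin at E10.5 and E12.5 but with papain at E14.5. Stage and body site therefore cannot be told apart between E10.5 and E12.5, nor stage and enzyme between E12.5 and E14.5. Between E10.5 and E14.5 stage, body site and enzyme cannot be told apart.

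Collagen chains assemble as trimers in the endoplasmic reticulum, where prolines and lysines are hydroxylated and the chaperone HSP47 holds the folding helix, and they leave the cell in large carriers. Fibrillar chains are then trimmed and cross-linked into the fibrils of mesenchyme, dermis, tendon and bone, FACIT chains sit on fibril surfaces, type IV chains form the sheet of every basement membrane, and type VI forms beaded filaments around cells. In the embryonic head, crest-derived mesenchyme makes the dermis, cartilage, bone and connective tissue of the face, and PA2 supplies most of the mouse pinna.

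The sequence before the start site is shown for 5 chains that the results turn on, which all rose over the stages, at differing pace: Col3a1, the most abundant chain of the sorted crest, Col24a1, Col6a2 and Col6a3, with large rises, and Col8a1, which rose early and was higher in PA3. Each line gives the 250 bases before the annotated start on the gene's strand, from RefSeq for GRCm38.p6, and none of these bases lies in an exon of GENCODE M21. Col6a2 has a second annotated start, whose window holds 226 exon bases and 3 GGGCGG and is not shown. Capitals mark, on either strand, the letters TATAAA of a TATA box, the letters CCAAT of a CCAAT box, or the letters GGGCGG of a GC box. The windows are Col3a1 at chr1:45311288-45311537 on the plus strand, Col24a1 at chr3:145292222-145292471 on the plus strand, Col6a2 at chr10:76623631-76623880 on the minus strand, Col6a3 at chr1:90843972-90844221 on the minus strand, and Col8a1 at chr16:57754738-57754987 on the minus strand.
Col3a1: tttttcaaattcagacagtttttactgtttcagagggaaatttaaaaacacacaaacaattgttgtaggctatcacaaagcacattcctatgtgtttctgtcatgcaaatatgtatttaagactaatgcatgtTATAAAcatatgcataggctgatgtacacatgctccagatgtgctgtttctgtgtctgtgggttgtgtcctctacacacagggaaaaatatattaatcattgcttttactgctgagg
Col24a1: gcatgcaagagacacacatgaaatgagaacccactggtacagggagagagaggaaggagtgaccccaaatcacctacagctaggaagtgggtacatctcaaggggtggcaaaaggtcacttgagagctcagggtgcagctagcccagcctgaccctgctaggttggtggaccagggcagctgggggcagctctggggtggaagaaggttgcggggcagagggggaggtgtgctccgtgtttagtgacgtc
Col6a2: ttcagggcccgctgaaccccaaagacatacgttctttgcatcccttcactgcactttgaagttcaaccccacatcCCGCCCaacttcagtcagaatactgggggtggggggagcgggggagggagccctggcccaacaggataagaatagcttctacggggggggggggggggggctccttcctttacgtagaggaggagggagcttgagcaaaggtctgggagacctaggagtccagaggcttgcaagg
Col6a3: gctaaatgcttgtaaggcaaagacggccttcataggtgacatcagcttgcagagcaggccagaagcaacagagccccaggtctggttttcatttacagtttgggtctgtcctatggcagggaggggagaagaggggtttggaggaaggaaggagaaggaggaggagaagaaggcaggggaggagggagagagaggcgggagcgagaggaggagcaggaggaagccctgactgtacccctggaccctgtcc
Col8a1: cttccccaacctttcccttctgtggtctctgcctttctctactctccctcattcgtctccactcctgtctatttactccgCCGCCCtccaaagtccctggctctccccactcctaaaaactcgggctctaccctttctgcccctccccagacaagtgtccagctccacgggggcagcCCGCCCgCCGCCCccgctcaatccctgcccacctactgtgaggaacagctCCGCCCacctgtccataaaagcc
The window of Col3a1 held 1 TATAAA, the printed one of Col6a2 held 1 GGGCGG and that of Col8a1 held 4 GGGCGG, while those of Col24a1 and Col6a3 held none of the 3 motifs. Over 34 such windows of 32 collagen genes, TATAAA was in 5 (14.7%), against 12.4% of 32851 promoter windows of all genes, CCAAT in 11 (32.4%, against 33.8%), and GGGCGG in 20 (58.8%, against 32.7%). The median GC content was 59.0% in the collagen windows and 52.4% in all windows. These are matches of letters only.

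Each arch library held between 25.8 and 32.2 M counts. Sorted libraries held between 25.8 and 30.2 M at E10.5 and E12.5, and were deeper at E14.5, at 47.5 to 49.1 M. The check of the genotype labels was Hoxa2, which stood at 73.4 to 84.2 CPM (counts per M counts of the library, after TMM scaling) in WT PA2 and 4.75 to 7.09 in HIRE1del PA2, and at 56.1 to 65.1 in WT PA3 and 22.1 to 25.6 in HIRE1del PA3. Markers of crest mesenchyme (Twist1, Prrx1, Prrx2, Pdgfra, Tfap2a) summed to 1510 to 1740 CPM in the sorted E10.5 cells, 3250 to 3530 at E12.5 and 3560 to 3960 at E14.5, and to 623 to 1050 in the arches. Pdgfra supplied a mean of 1010, 2310 and 3000 CPM at the 3 stages, and no other of the 5 exceeded 384, 537 and 388. Among markers of other cell types, blood markers summed to 0.883 to 7.17 CPM in the sorted cells, and epithelial markers to 7.84 to 42.6. Endothelial markers summed to 7.02 to 9.74 CPM at E10.5 and 110.0 to 173 at E14.5, where Kdr supplied a mean of 141 CPM and no other of the 6 exceeded 2.72. Markers of Schwann cells and glia reached 84.3 to 99.8 CPM in the sorted E14.5 cells, above their 33 to 49.5 in the PA2 groups, and neuron markers 34.1 to 39.6 in the sorted E10.5 cells, above 15.1 to 28.2. The PA3 groups were not below the sorted cells, at 88.6 to 133 CPM for Schwann cells and glia and 40.1 to 129 for neurons. Blood, epithelial and endothelial lists were higher in the arches: blood at 1350 to 2940 CPM in PA2 and 10800 to 21500 in PA3, epithelium at 170.0 to 204 and 337 to 524, and endothelium at 273 to 290.0 and 323 to 359. Of the 5 cartilage genes, Matn1 and Snorc had no count at E14.5 and Acan led there, at 10.1 to 13.9 CPM, and neither Matn1 nor Ibsp, a bone matrix gene, had one in PA2 of either genotype.

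Collagen transcripts took a growing share of the RNA of the sorted crest. All 40 genes together held 0.592% ± 0.0578 (SD, n = 3) of the counts at E10.5, 1.87% ± 0.085 at E12.5 and 6.73% ± 0.809 at E14.5, and the ranges of the stages did not overlap. In these bulk samples, a change in the mix of cells and a change in RNA per cell cannot be told apart. In the arches the share was 0.410% ± 0.0265 in WT PA2, 0.408% ± 0.0277 in HIRE1del PA2, 0.452% ± 0.0141 in WT PA3 and 0.411% ± 0.0231 in HIRE1del PA3. To compare chains with each other, levels are given per length, as reads per kilobase of exon and per M counts (RPKM) after TMM scaling of the libraries. On this scale fibrillar chains made up 52.2% ± 1.48 of the collagen sum at E10.5 and 63.1% ± 2.05 at E14.5, type IV went from 18.8% ± 1.05 to 5.05% ± 0.425, and type VI from 3.37% ± 0.719 to 22.6% ± 1.46. The multiplexins went from 5.11% ± 0.249 to 0.0793% ± 0.00314. The plot of class shares shows these values beside the arches, where fibrillar chains were 34.4% ± 1.68 of the sum in WT PA2, type IV 30.9% ± 1.4 and Col18a1 alone 13.8% ± 0.794.

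**Figure D1:**
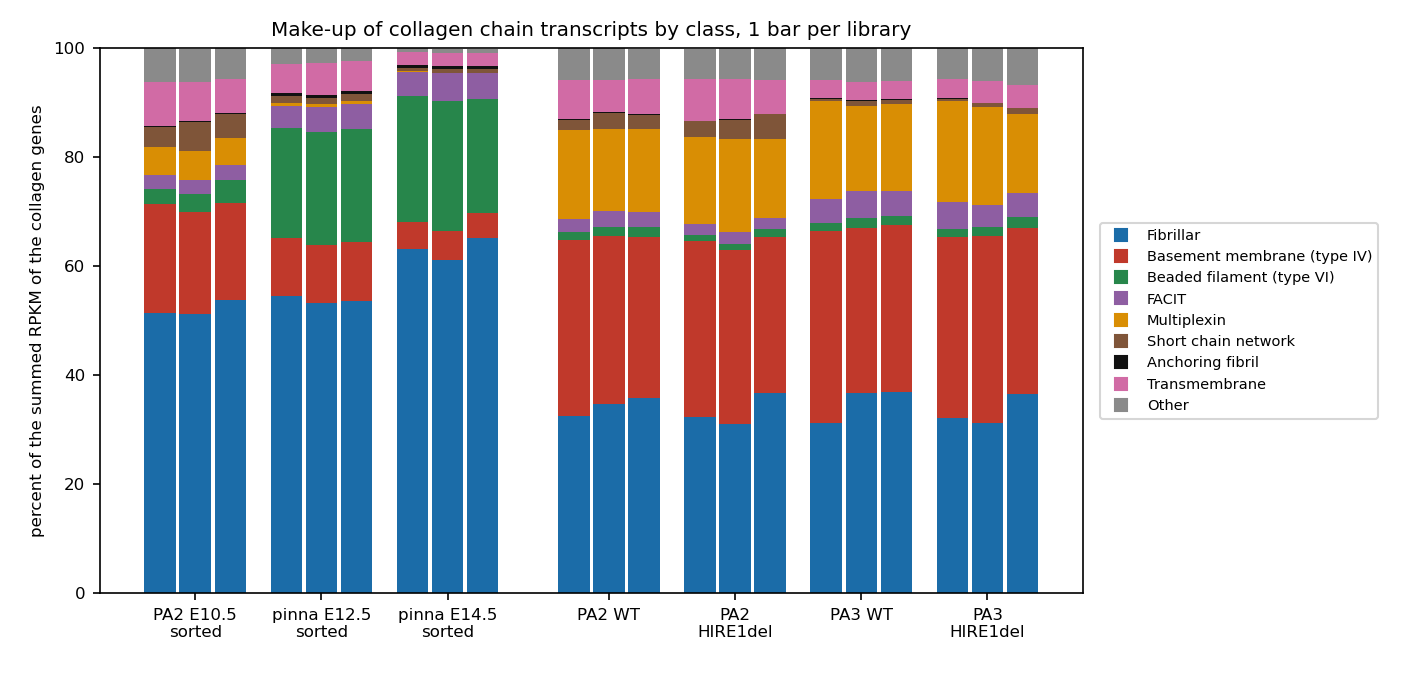
Share of each collagen class in the length-scaled collagen sum (vertical axis, percent of summed RPKM), 1 stacked bar for each library of the 7 groups. Fibrillar chains are the largest class in all sorted libraries and in WT PA2, fibrillar and type IV shares overlap in the other arch groups, the mean of type VI is 3.37% at E10.5 and 22.6% at E14.5, and that of type IV is 30.9% in WT PA2 and 5.05% at E14.5.

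Most collagen genes rose through the stages, a larger share than of all genes tested. A gene was tested where it reached 1 CPM in 2 libraries of its table, and called where the adjusted p of edgeR's quasi-likelihood test was under 0.05. Of 33 tested collagen genes, 27 rose and 4 fell between E10.5 and E12.5, against 35.0% and 33.7% of all 13438 genes tested. From E12.5 to E14.5, 29 rose and 2 fell, against 32.6% and 33.1% of all genes. Over the whole span, 30 rose and 1 fell, against 42.0% and 40.0%. Some chains passed this filter only through a stage where they are high, among them Col6a6, Col8a1, Col17a1 and Col19a1. With 1 CPM required in every library, 27 chains were tested, and 23 rose and 3 fell in the first interval. In the second 23 rose and 2 fell, and over the span 25 and 1. Of all genes called under that filter, 50.4%, 49.9% and 50.9% rose. Changes of at least 1 on the log2 scale were made by 20 chains upward and 3 downward in the first interval (14.8% and 6.79% of all genes), 24 and 2 in the second (12.2% and 7.53%), and 28 and 1 over the span (23.1% and 16.2%). The median log2 change of the tested chains was 1.4 in the first interval, 1.89 in the second and 3.28 over the span, where the medians of all genes were 0.0097, -0.0076 and 0.024. These comparisons share libraries, so their values stand side by side and are not independent. Every value below is RPKM in each of the 3 libraries of a group, and every log2 change is given ± SE.

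**Figure D2:**
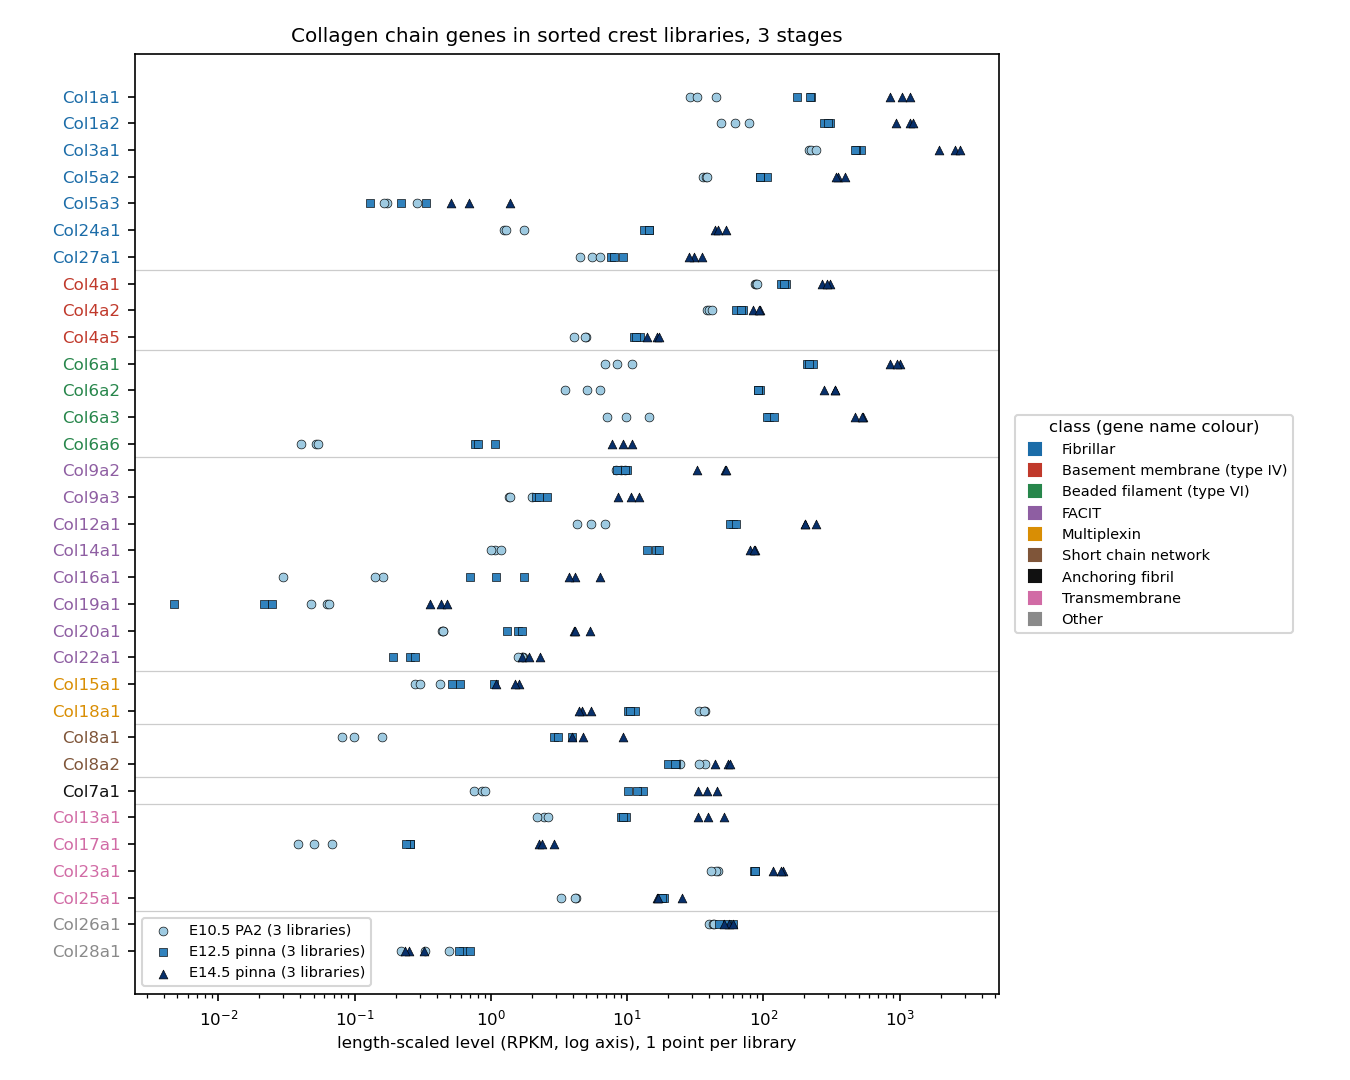
Level of the named collagen genes in the 9 stage libraries, 1 gene a row and grouped by class (horizontal axis, RPKM on a log scale; each point is 1 library, and its shape gives the stage). Most chains climb from E10.5 to E14.5, Col18a1 descends, and Col22a1 and Col19a1 dip at E12.5.

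Fibrillar chains were the most abundant collagens of the sorted crest, and all 7 tested rose between E10.5 and E14.5, with a median log2 change of 3.4. Col3a1, the chain of type III collagen of soft connective tissue, was at 216, 225 and 245 RPKM at E10.5, 517, 481 and 467 at E12.5 and 2539, 1938 and 2764 at E14.5. The E12.5 libraries lay above all E10.5 libraries and below all E14.5 libraries, and the whole change was 3.4 ± 0.12 (adjusted p = 4.47e-10). Type I collagen, the main fibril protein of skin, tendon and bone, is built from Col1a1 and Col1a2. Col1a1 was at 28.8, 32.7 and 44.7 RPKM at E10.5, 224, 177 and 219.7 at E12.5 and 1042, 845 and 1191 at E14.5, a change of 4.86 ± 0.19 (adjusted p = 9.76e-10). Col1a2 was at 49.2, 61.7 and 78.1 RPKM at E10.5, 307, 278 and 300.2 at E12.5 and 1184, 942 and 1252 at E14.5, a change of 4.16 ± 0.17 (adjusted p = 1.11e-09). For both chains the stages did not overlap. Col5a2, a chain of the type V collagen that sits inside type I fibrils, climbed from 36.2 to 38.5 RPKM to 344 to 399 with little spread and changed by 3.28 ± 0.08 (adjusted p = 2.84e-11).

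Among the scarcer fibrillar chains, Col24a1, a chain of developing bone and eye, was at 1.25, 1.28 and 1.74 RPKM at E10.5, 14.54, 13.3 and 14.4 at E12.5 and 44.2, 46.5 and 53.4 at E14.5. Its first interval, 3.3 ± 0.12 (adjusted p = 3.21e-09), was the largest early rise of the class. Col27a1, known from cartilage, went from 4.52 to 6.34 RPKM to 28.3 to 35.2 and changed by 2.53 ± 0.13 (adjusted p = 7.41e-09). Col5a3, another type V chain, was at 0.163 to 0.285 RPKM at E10.5 and 0.129 to 0.333 at E12.5, ranges that overlap, and its first interval of 0.13 ± 0.45 (adjusted p = 0.814) was not called. Col5a3 then rose by 1.92 ± 0.42 (adjusted p = 0.00191) to 0.506 to 1.37 RPKM. Col11a2, a cartilage chain, did not pass the filter in either table, with at most 2 counts in any library.

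Chains of type IV, the sheet of basement membranes, had the lowest median change of the classes with more than 2 tested genes. Of 6 chains, 3 were tested in the stage series and all 3 rose, with a median log2 change of 1.72 over the span. Col4a1 was at 87, 87.9 and 89.6 RPKM at E10.5, 146, 135 and 141 at E12.5 and 309.8, 270.1 and 291 at E14.5. Its partner Col4a2, transcribed from the opposite strand of the same locus, was at 38.8, 40 and 41.9 RPKM at E10.5, 71, 63.1 and 68.8 at E12.5 and 94.6, 84.1 and 92.4 at E14.5. Neither chain overlapped between stages, and the whole change was 1.72 ± 0.06 (adjusted p = 5.46e-10) for Col4a1 and 1.17 ± 0.07 (adjusted p = 1.86e-08) for Col4a2. Col4a5 was at 4.07, 4.96 and 4.94 RPKM at E10.5, 11.2, 12.48 and 11.7 at E12.5 and 16.5, 14.1 and 17.2 at E14.5 and gained 1.338 ± 0.10 (adjusted p = 4.07e-07) by E12.5. The second interval added 0.44 ± 0.09 (adjusted p = 0.0017) to Col4a5. Col4a3 and Col4a4, chains of the mature kidney membrane, and Col4a6 did not pass the filter here. Col4a3 was at 0 to 0.00671 RPKM at E10.5 and Col4a4 at 0.0123 to 0.0194. Col4a6 stood at 0.0042 to 0.0129 RPKM at E10.5 and 0.0132 to 0.0357 at E14.5.

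Type VI chains had the highest median log2 change of any class over the span, 6.38, and all 4 tested chains rose. The type VI monomer joins Col6a1, Col6a2 and a longer chain, most often Col6a3. Col6a1 was at 6.93, 8.45 and 10.8 RPKM at E10.5, 231, 210.1 and 216 at E12.5 and 1015, 857 and 955 at E14.5. Col6a2 was at 3.5, 5.04 and 6.3 RPKM at E10.5, 95.3, 91.2 and 90.6 at E12.5 and 336, 279.8 and 337 at E14.5. Col6a3 was at 7.14, 9.74 and 14.53 RPKM at E10.5, 109, 107 and 119.8 at E12.5 and 539, 467 and 532 at E14.5. The E10.5 levels of these chains were below every E12.5 level by a wide margin, and the E12.5 levels below every E14.5 level. The log2 change over the span was 6.76 ± 0.16 (adjusted p = 3.03e-11) for Col6a1, 6.01 ± 0.19 (adjusted p = 2.20e-10) for Col6a2 and 5.61 ± 0.23 (adjusted p = 1.27e-09) for Col6a3. Col6a6, an alternative to Col6a3, was at 0.0401, 0.0524 and 0.0535 RPKM at E10.5, 1.07, 0.762 and 0.808 at E12.5 and 7.72, 9.27 and 10.9 at E14.5. Its change of 7.56 ± 0.22 (adjusted p = 9.65e-11) was the largest of all tested collagen genes. Col6a6 passed the filter only through the later stages, where it is high. Col6a4 and Col6a5, the other alternative chains, did not pass the filter in either table. Col6a4 reached 0.0439, 0.116 and 0.193 RPKM at E14.5. Col6a5 reached 0.395, 0.052 and 0.0217 RPKM at E12.5, so that 1 library stood apart from the others.

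FACIT chains did not move as a block in the first interval, where 5 of 8 rose and 2 fell, but all 8 rose in the second. Among these, Col19a1 passed the filter only through E14.5, where it is high. Col12a1, found on fibrils of tendon and fascia, was at 4.28, 5.39 and 6.87 RPKM at E10.5, 59.5, 56.6 and 63.1 at E12.5 and 203, 203 and 242 at E14.5, a change of 5.29 ± 0.17 (adjusted p = 1.72e-10). Col14a1, its close relative in dermis and tendon, was at 1.07, 1.18 and 1.01 RPKM at E10.5, 14.1, 16.3 and 17.2 at E12.5 and 80.4, 87.4 and 84.8 at E14.5, a change of 6.28 ± 0.10 (adjusted p = 4.05e-12). Both were separated between all stages. Col9a2, a chain of cartilage type IX collagen, was at 8.22, 8.96 and 9.7 RPKM at E10.5, 8.47, 10 and 9.67 at E12.5 and 51.9, 32.6 and 53.3 at E14.5. The E10.5 and E12.5 libraries of Col9a2 overlapped, with a first interval of 0.07 ± 0.17 (adjusted p = 0.729) that was not called, and the second interval was 2.29 ± 0.17 (adjusted p = 4.87e-07). Its partner Col9a3 followed, with 0.55 ± 0.18 (adjusted p = 0.0155) in the first interval and 2.17 ± 0.16 (adjusted p = 6.95e-07) in the second. Cartilage markers summed to 79.8 to 83.9 CPM at E10.5, 27.4 to 39.0 at E12.5 and 12.8 to 17.1 at E14.5. Sox9 made up most of the sum at E10.5, at 77.0 to 79.7 CPM, and was at 1.49 to 2.01 at E14.5, while Acan went from 1.24 to 3.01 CPM at E10.5 to 0.294 to 0.78 at E12.5 and 10.1 to 13.9 at E14.5. The part of these cells was not tested. The first call of Col9a3 was lost without E10.5 replicate 1 or 2 or E12.5 replicate 2 and with limma-voom (adjusted p up to 0.0612). Col9a3 shares 234 exon bases, 6.07% of its exonic length, with Tcfl5 on the opposite strand, and strand was not kept by the library kit.

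A pair of FACIT chains fell and then rose. Col22a1, known from tissue junctions such as those of muscle and tendon, was at 1.71, 1.7 and 1.59 RPKM at E10.5, 0.254, 0.192 and 0.277 at E12.5 and 1.69, 1.91 and 2.3 at E14.5. All E12.5 libraries were below the others, and E10.5 and E14.5 overlapped. Col22a1 fell in the first interval, with a log2 change of -2.79 ± 0.16 (adjusted p = 6.38e-08), and rose in the second, by 3.03 ± 0.16 (adjusted p = 3.87e-08). Over the span the change was 0.24 ± 0.13 (adjusted p = 0.114), which was not called. Col19a1, expressed in muscle and neurons, was at 0.0631, 0.0648 and 0.0475 RPKM at E10.5, 0.0216, 0.00474 and 0.0247 at E12.5 and 0.429, 0.36 and 0.477 at E14.5, and its low E12.5 values rest on 1 to 5 counts. Col16a1 varied between libraries of a stage, from 0.0297 to 0.163 RPKM at E10.5 to 3.71 to 6.37 at E14.5, and rose by 5.42 ± 0.45 (adjusted p = 4.28e-07). Col20a1 was steadier, going from 0.44 to 0.445 RPKM to 4.07 to 5.32, and rose by 3.34 ± 0.15 (adjusted p = 2.73e-09).

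The multiplexins Col15a1 and Col18a1, which link basement membranes to the matrix below, moved in opposite directions. Col18a1, the source of endostatin, was at 33.4, 37.6 and 36.7 RPKM at E10.5, 11.4, 10.2 and 10.4 at E12.5 and 4.64, 4.47 and 5.47 at E14.5. It was the only tested collagen gene to fall over the span, with a log2 change of -2.89 ± 0.09 (adjusted p = 1.45e-10), and it fell in both intervals. Col15a1 was at 0.279, 0.303 and 0.422 RPKM at E10.5, 1.06, 0.591 and 0.519 at E12.5 and 1.61, 1.09 and 1.5 at E14.5 and rose by 2.06 ± 0.28 (adjusted p = 3.19e-05). Its E12.5 and E14.5 libraries came close but did not overlap.

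Short chains form hexagonal networks in vessels, cornea and growth plate. Col8a1 was at 0.0982, 0.0806 and 0.16 RPKM at E10.5, 2.89, 3.94 and 3.12 at E12.5 and 3.97, 4.77 and 9.26 at E14.5. At E10.5 Col8a1 rested on few counts, and its first rise of 4.86 ± 0.41 (adjusted p = 1.21e-06) was the largest of any collagen gene in that interval. The second rise, 0.85 ± 0.27 (adjusted p = 0.0164), was lost without E12.5 replicate 1 or 3 or E14.5 replicate 3 (adjusted p up to 0.0574), and without the last of these it was 0.40. Its partner Col8a2 was far higher at E10.5 and was at 24.4, 37.6 and 33.8 RPKM at E10.5, 22.7, 20.1 and 22.4 at E12.5 and 55.3, 44.4 and 56.9 at E14.5, with a fall in the first interval, -0.56 ± 0.14 (adjusted p = 0.00473), and a rise in the second, 1.26 ± 0.14 (adjusted p = 1.60e-05). Col10a1, the mark of hypertrophic cartilage, did not pass the filter in the stage series: no E10.5 or E12.5 library had a count of Col10a1, and the E14.5 libraries gave 0.0774, 0 and 0.007 RPKM.

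Col7a1, the anchoring-fibril chain that ties epidermis to dermis, was at 0.751, 0.867 and 0.902 RPKM at E10.5, 13.1, 10.1 and 11.9 at E12.5 and 38.8, 33.3 and 45.8 at E14.5. Its change of 5.55 ± 0.15 (adjusted p = 6.67e-11) came with stages that did not overlap. Of the transmembrane chains, which span the cell membrane and can be shed, all 4 rose over the span with a median log2 change of 3.21. Col23a1 was at 46.8, 45.3 and 41.1 RPKM at E10.5, 86.9, 85.7 and 86.4 at E12.5 and 139.9, 118 and 135 at E14.5. It was the most abundant of the 4 at each stage and rose by 1.56 ± 0.07 (adjusted p = 3.96e-09). Col13a1, found at muscle and nerve junctions, was at 2.43, 2.18 and 2.65 RPKM at E10.5, 8.98, 9.73 and 9.35 at E12.5 and 39.2, 33.3 and 51.1 at E14.5 and rose by 4.09 ± 0.15 (adjusted p = 5.93e-10). Col17a1, a hemidesmosome protein of basal keratinocytes, was at 0.0501, 0.0685 and 0.0381 RPKM at E10.5, 0.253, 0.255 and 0.237 at E12.5 and 2.27, 2.38 and 2.88 at E14.5. Its rise of 5.58 ± 0.21 (adjusted p = 5.92e-10) was seen while epithelial markers summed to 9.17 to 11.4 CPM at E10.5 and 24.8 to 42.6 at E14.5, and the part of those cells in it was not tested. Col25a1, a chain that motor nerves need to reach muscle, was at 3.27, 4.18 and 4.15 RPKM at E10.5, 18.6, 17.8 and 17.9 at E12.5 and 16.5, 16.9 and 25.2 at E14.5. Col25a1 rose by 2.23 ± 0.16 (adjusted p = 3.03e-07) in the first interval, and its second interval of 0.11 ± 0.15 (adjusted p = 0.536) was not called.

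Col26a1 and Col28a1 belong to none of these classes. Col26a1 was at 40, 42.7 and 43.3 RPKM at E10.5, 60.1, 54 and 46.9 at E12.5 and 55.8, 51.1 and 60.3 at E14.5 and rose by 0.41 ± 0.09 (adjusted p = 0.00136), the smallest called change over the span. Col28a1, known from Schwann cells, was at 0.218, 0.329 and 0.493 RPKM at E10.5, 0.621, 0.579 and 0.707 at E12.5 and 0.252, 0.322 and 0.232 at E14.5. It rose by 0.87 ± 0.28 (adjusted p = 0.0174) and then fell, with a second interval of -1.24 ± 0.28 (adjusted p = 0.00247). The first call of Col28a1 was lost without E10.5 replicate 1 or 2 or E12.5 replicate 3 (adjusted p up to 0.0612). Markers of Schwann cells and glia summed to 20.5 to 23.4 CPM at E10.5, 21.6 to 25.6 at E12.5 and 84.3 to 99.8 at E14.5, with Foxd3 among them at no count at any of the stages, and their part in the values of Col28a1 was not tested.

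For many chains the pace of change was not the same in both intervals. The test was of the second log2 change minus the first, gene by gene, and it called 11 collagen genes with a higher second change and 13 with a lower one, against 20.5% and 22.9% of all genes. Col19a1 and Col8a1, given below, passed the filter only through a stage where they are high. With 1 CPM required in every library, 27 chains were tested, and 9 had a higher second change and 12 a lower one. Of all genes called under that filter, 48.7% were higher. All 3 called type VI chains had more of their rise early (median difference -1.83 over 4 tested chains), and Col6a1 differed by -2.54 ± 0.21 (adjusted p = 4.41e-06). Of the FACIT chains 4 were higher and 2 lower. Col19a1 differed by 6.38 ± 0.78 (adjusted p = 7.17e-05), Col22a1 by 5.82 ± 0.29 (adjusted p = 1.27e-07) and Col9a2 by 2.22 ± 0.29 (adjusted p = 1.32e-04). Of the fibrillar chains 3 were higher and 1 lower: Col3a1 differed by 1.21 ± 0.20 (adjusted p = 5.29e-04) and Col24a1 by -1.53 ± 0.19 (adjusted p = 7.45e-05). Early rises were also shown by Col8a1, at -4.01 ± 0.57 (adjusted p = 2.19e-04), Col25a1, at -2.12 ± 0.25 (adjusted p = 5.53e-05), and Col28a1, at -2.11 ± 0.47 (adjusted p = 0.00413). Within type IV, Col4a1 differed by 0.37 ± 0.11 (adjusted p = 0.0165) and Col4a2 by -0.33 ± 0.11 (adjusted p = 0.0363). These and the calls of Col5a2, Col17a1 and Col23a1 were each lost without at least 1 of the libraries. Scaling by total counts alone moved the median of all genes to -0.19 and the share of all calls that were higher from 47.3% to 30.0%, and it gave 8 collagen genes higher and 14 lower. In the second interval it moved the same share from 49.7% to 38.5%, with 29 collagen genes higher and 2 lower as before.

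**Figure D3:**
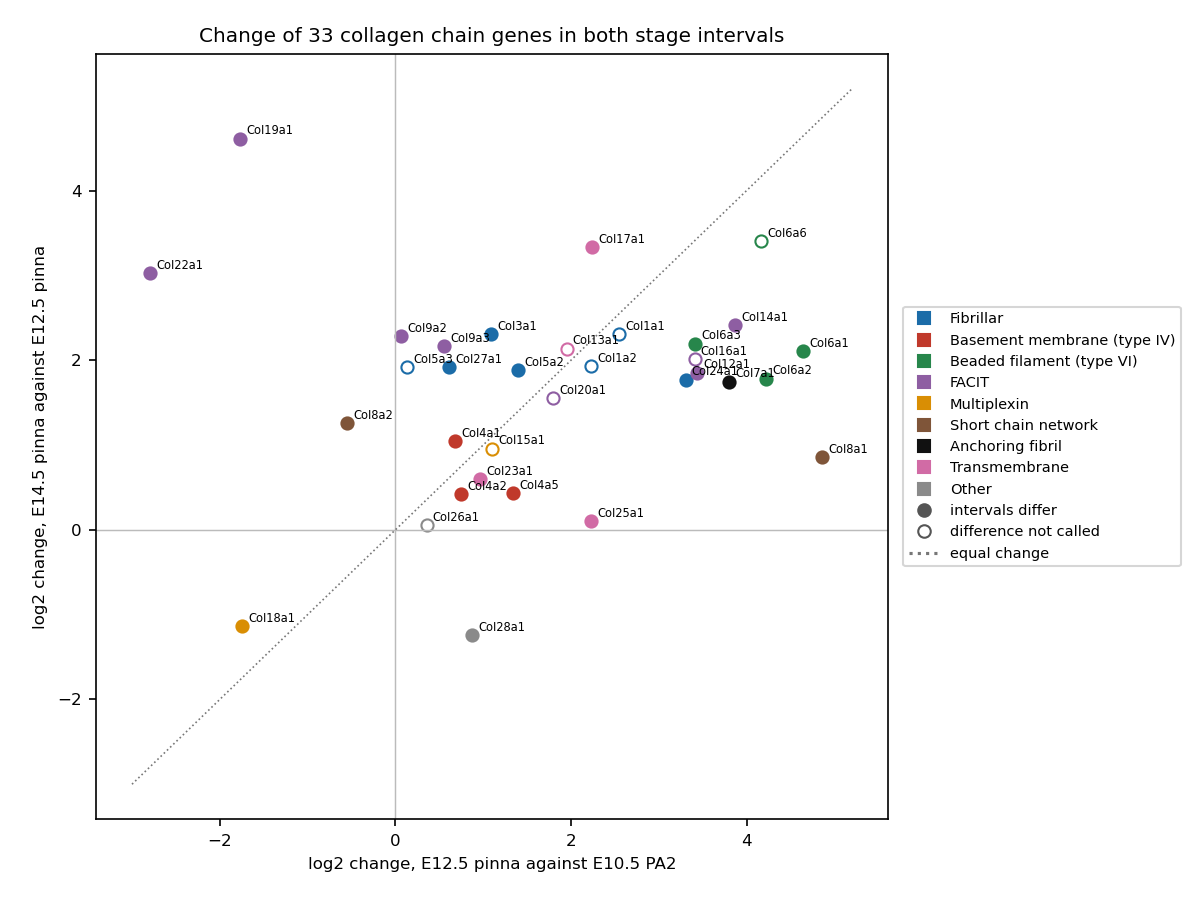
Log2 change from E10.5 to E12.5 (horizontal axis) against log2 change from E12.5 to E14.5 (vertical axis) for each of 33 tested collagen genes, coloured by class, with filled points where the intervals differ by the test. Most genes lie in the upper right, Col22a1, Col19a1 and Col8a2 in the upper left, Col18a1 in the lower left and Col28a1 in the lower right.

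The measured ratio between chains that assemble with each other did not overlap between some of the groups compared. For 7 pairs the log2 ratio of length-scaled levels was taken in each library. Groups were compared where every library of both groups had at least 10 counts of each chain. These 20 comparisons were made by an exact two-sided permutation test, whose smallest p for 3 against 3 libraries is 0.1. No p could therefore reach 0.05, and the adjusted p over the 20 was 0.25 at the lowest. In 8 of the 20 the groups did not overlap. The level of a ratio depends on the lengths used, and its difference between groups does not. The ratio of Col1a1 to Col1a2 was -0.83 ± 0.0762 (SD, n = 3) at E10.5 and -0.14 ± 0.058 at E14.5, exact p = 0.1. The ratio of Col4a1 to Col4a2 went from 1.13 ± 0.0343 to 1.68 ± 0.0266, that of Col6a1 to Col6a2 from 0.84 ± 0.131 to 1.57 ± 0.061, and that of Col6a1 to Col6a3 from -0.23 ± 0.194 to 0.88 ± 0.035. For Col8a1 to Col8a2 it went from -8.18 ± 0.602 to -3.21 ± 0.591. In these 5 pairs the ratio of the first chain was higher at E14.5 in each library. The ratio of Col9a2 to Col9a3 overlapped between the stages, at 2.52 ± 0.219 and 2.11 ± 0.179. In HIRE1del, Col1a1 to Col1a2 was -1.64 ± 0.162 in PA2 against -1.09 ± 0.146 in WT, and -0.61 ± 0.209 in PA3 against -0.24 ± 0.0704, without overlap in either arch. Col9a2 to Col9a3 was also apart in PA2, at 3.41 ± 0.338 in HIRE1del and 2.98 ± 0.0713 in WT.

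Genes that process, bind and remove collagen moved with the chains over the stages. Of 58 listed, 56 were tested, of which 47 rose and 7 fell between E10.5 and E14.5, with a median log2 change of 1.74, where 42.0% of all genes rose and 40.0% fell. Some passed the filter only through a stage where they are high, among them Aspn and Tll2, so their rise is partly built into the choice. In the first interval 40 rose and 6 fell, against 35.0% and 33.7% of all genes, and in the second 41 rose and 7 fell, against 32.6% and 33.1%. Between the arches 17 of 54 tested were higher in PA3 and 7 lower in WT, where 19.1% and 17.4% of all genes were, and 18 and 7 in HIRE1del, against 18.7% and 14.7%. Of 18 genes of hydroxylation and folding 17 rose. Colgalt2, which adds galactose to hydroxylysine, was at 0.37, 0.202 and 0.285 RPKM at E10.5, 1.05, 0.969 and 1.09 at E12.5 and 11.7, 12.2 and 14.4 at E14.5 and rose by 5.48 ± 0.16 (adjusted p = 1.17e-10). Plod1, a lysyl hydroxylase, was scattered at 0.0247, 0.122 and 0.285 RPKM at E10.5, 1.28, 0.0338 and 0.00502 at E12.5 and 3.21, 0.0559 and 1.99 at E14.5, and its call of 3.59 ± 1.45 (adjusted p = 0.0383) was lost under 7 alternatives, DESeq2, limma-voom and the replicate block among them (adjusted p up to 0.29). In secretion 5 of 6 rose, with 5.14 ± 0.20 (adjusted p = 8.21e-10) for Creb3l1, a transcription factor of the secretory load in bone, and 2.56 ± 0.08 (adjusted p = 1.37e-10) for Sec24d, a coat protein of the export carriers. Of 8 genes of propeptide cleavage 4 rose and 4 fell. Adamts2, the procollagen N-proteinase, rose by 3.84 ± 0.17 (adjusted p = 2.35e-09), and Tll2, a tolloid protease, was at 0, 0.0145 and 0.0207 RPKM at E10.5, 0.392, 0.366 and 0.323 at E12.5 and 0.372, 0.333 and 0.292 at E14.5, with 0 to 3 counts a library at E10.5.

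All 4 tested cross-linking oxidases rose. Lox was at 4.89, 6.26 and 5.89 RPKM at E10.5, 44.3, 49.8 and 43.6 at E12.5 and 61.2, 66.9 and 89.1 at E14.5 and rose by 3.67 ± 0.15 (adjusted p = 1.06e-09), and Loxl2 rose by 2.3 ± 0.08 (adjusted p = 2.82e-10). All 8 proteoglycans that coat fibrils rose, with a median log2 change of 6.92, a count that includes Aspn, which passed the filter only through later stages. Dcn, decorin, was at 0.235, 0.247 and 0.274 RPKM at E10.5, 10.9, 13 and 9.36 at E12.5 and 48.4, 45.3 and 67.4 at E14.5, a rise of 7.73 ± 0.22 (adjusted p = 9.08e-11). Aspn, asporin, was at 0.0142, 0.0292 and 0.0833 RPKM at E10.5, 0.505, 0.707 and 0.375 at E12.5 and 108, 103 and 131 at E14.5, and its E10.5 level rests on 1 to 6 counts. Of 8 receptors 6 rose and 1 fell, among them the integrin chains Itga2, with 3.46 ± 0.28 (adjusted p = 3.16e-07), and Itga11, with 3.0 ± 0.15 (adjusted p = 5.97e-09). Of 4 tested genes of breakdown 3 rose and 1 fell. Ctsk, cathepsin K, rose by 6.0 ± 0.22 (adjusted p = 6.30e-10) and Mmp2, a gelatinase, by 2.13 ± 0.10 (adjusted p = 4.67e-09).

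The arches at E10.5 differed in 17 of 34 tested collagen genes in WT, of which 12 were higher in PA3 and 5 lower, against 19.1% and 17.4% of 14383 genes tested. In HIRE1del also 17 were called, 10 higher in PA3 and 7 lower, against 18.7% and 14.7%. The WT and HIRE1del comparisons share no library. They had 11 called genes in common, 64.7% of each list, 7 higher and 4 lower in both. Of all genes called, 69.1% of the WT list and 75.5% of the HIRE1del list were shared. Whether the arch difference itself differed between genotypes was tested gene by gene, and 0 collagen genes were called without the pairing described next, and Col25a1 with it. PA2 and PA3 libraries of a genotype that bear the same replicate number deviated together, so a fit that pairs them is given where it changes a call. It called 23 collagen genes in WT and 21 in HIRE1del, with 17 in common, 73.9% and 81% of the lists, against 70.6% and 76.6% over all genes. Of all 14383 genes it called 6098 and 5625, where the unpaired fit called 5252 and 4806. The median log2 difference of all tested chains was 0.19 in each genotype, where that of all genes was -0.00065 and -0.00015. These libraries held blood markers at 1350 to 2940 CPM in PA2 and 10800 to 21500 in PA3, epithelial markers at 170.0 to 204 and 337 to 524, and muscle markers at 21.8 to 26.8 and 41.7 to 55.5, and the part of these cells in the differences was not tested.

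**Figure D4:**
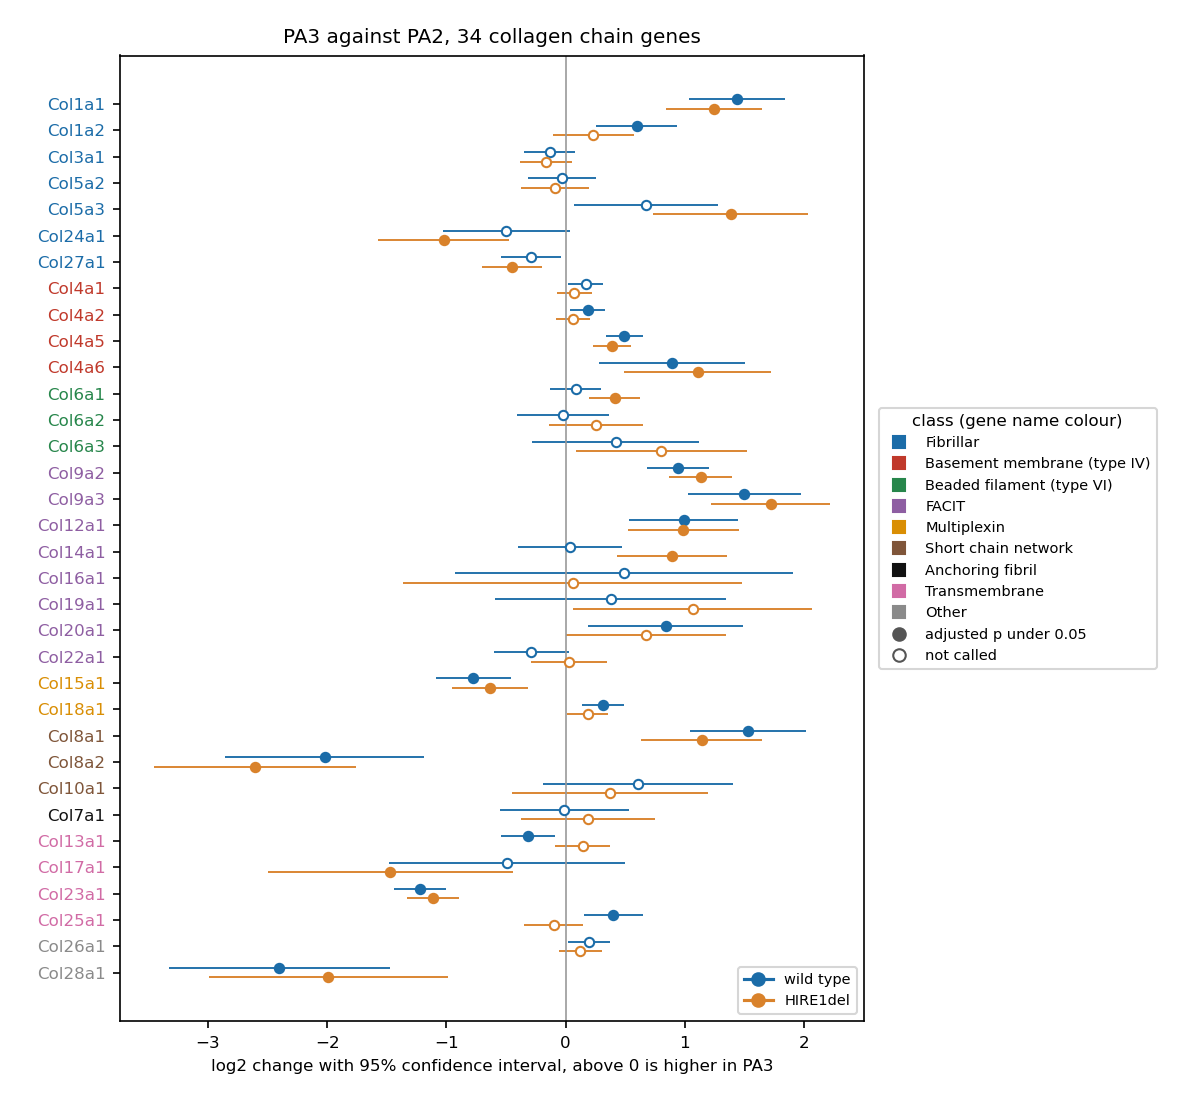
Log2 difference of PA3 from PA2 (horizontal axis; bars are 95% confidence intervals of the fit) for each of the 34 collagen genes tested, in WT and in HIRE1del, with filled points for called differences. Col1a1, Col9a2, Col9a3, Col12a1 and Col8a1 lie to the right of 0 in both genotypes, and Col8a2, Col23a1, Col28a1 and Col15a1 to the left.

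Both chains of type I collagen were higher in PA3 of WT. Col1a1 was at 9.85, 12.45 and 12.8 RPKM in WT PA2, 7.24, 6.64 and 11.4 in HIRE1del PA2, 28.9, 31.4 and 35.1 in WT PA3 and 21.5, 15.7 and 22.9 in HIRE1del PA3. Its PA2 and PA3 libraries did not overlap in either genotype, and PA3 exceeded PA2 by 1.44 ± 0.19 (adjusted p = 6.79e-05) in WT and 1.25 ± 0.19 (adjusted p = 2.52e-04) in HIRE1del. Col1a2 was at 22.1, 28.3 and 24.3 RPKM in WT PA2, 25.2, 20.9 and 31.7 in HIRE1del PA2, 33.1, 39.3 and 40.5 in WT PA3 and 27.7, 26 and 37.9 in HIRE1del PA3. The WT arches did not overlap for Col1a2, with a difference of 0.6 ± 0.16 (adjusted p = 0.0104), while the HIRE1del arches did, with 0.23 ± 0.16 (adjusted p = 0.281). The pairing called the HIRE1del difference of Col1a2 as well (adjusted p = 0.00535).

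Col3a1, the most abundant chain per length in PA2 by the group means, was at 111, 130.2 and 123 RPKM in WT PA2, 123, 107 and 135 in HIRE1del PA2, 96.3, 118 and 118 in WT PA3 and 104, 102 and 119 in HIRE1del PA3. All groups overlapped, and PA3 differed from PA2 by -0.13 ± 0.10 (adjusted p = 0.325) in WT and -0.17 ± 0.10 (adjusted p = 0.228) in HIRE1del. With the pairing both differences of Col3a1 were called, at adjusted p = 0.0417 and 0.0207. Col5a2 was at 16.8, 19.8 and 21.8 RPKM in WT PA2, 20, 15.7 and 18.8 in HIRE1del PA2, 15.4, 19.7 and 22 in WT PA3 and 15.9, 15.9 and 19.4 in HIRE1del PA3, and its groups overlapped with no call.

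The scarcer fibrillar chains Col24a1, Col27a1 and Col5a3 were called in HIRE1del. Col24a1 was at 0.473, 0.561 and 0.828 RPKM in WT PA2, 0.646, 0.598 and 0.766 in HIRE1del PA2, 0.392, 0.398 and 0.532 in WT PA3 and 0.353, 0.22 and 0.415 in HIRE1del PA3. Every HIRE1del PA3 library of Col24a1 was below every HIRE1del PA2 library, a difference of -1.02 ± 0.25 (adjusted p = 0.00748), and WT gave -0.5 ± 0.25 (adjusted p = 0.136). Col27a1 was at 2.63, 3.32 and 3.13 RPKM in WT PA2, 3.15, 2.85 and 3.44 in HIRE1del PA2, 2.37, 2.57 and 2.5 in WT PA3 and 2.11, 2.04 and 2.76 in HIRE1del PA3. Here too the HIRE1del arches were apart, by -0.45 ± 0.12 (adjusted p = 0.00977), with -0.29 ± 0.12 (adjusted p = 0.0686) in WT, and the HIRE1del call was lost without PA3 replicate 1 or 2 (adjusted p up to 0.0502). The pairing called Col24a1 and Col27a1 in WT too, at adjusted p = 0.035 and 0.00547. Col5a3 went the other way, at 0.193, 0.175 and 0.131 RPKM in WT PA2, 0.116, 0.109 and 0.0706 in HIRE1del PA2, 0.332, 0.257 and 0.208 in WT PA3 and 0.203, 0.329 and 0.24 in HIRE1del PA3. Its difference was 1.38 ± 0.30 (adjusted p = 0.00333) in HIRE1del, where the arches did not overlap, and 0.67 ± 0.28 (adjusted p = 0.077) in WT.

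Type IV chains held the next largest share of the length-scaled collagen sum in WT PA2, after the fibrillar chains. Col4a1 was at 110.5, 118 and 104 RPKM in WT PA2, 121, 108 and 106 in HIRE1del PA2, 134, 117 and 123 in WT PA3 and 119.7, 119.9 and 113 in HIRE1del PA3. The arches overlapped in both genotypes, with 0.17 ± 0.07 (adjusted p = 0.067) in WT, which the pairing called (adjusted p = 0.0377), and 0.07 ± 0.07 (adjusted p = 0.429) in HIRE1del. Its partner Col4a2 was at 45.1, 48.6 and 43 RPKM in WT PA2, 51.2, 44.6 and 44.6 in HIRE1del PA2, 55.9, 49.2 and 50.2 in WT PA3 and 48.7, 49.6 and 48.7 in HIRE1del PA3. The WT difference of 0.18 ± 0.07 (adjusted p = 0.0438) was lost without PA2 or PA3 replicate 1 or 3, with no filter and with only the libraries compared (adjusted p up to 0.178).

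Col4a5, the X-linked chain of the second type IV network, was at 6.12, 5.59 and 6.06 RPKM in WT PA2, 5.7, 5.62 and 5.4 in HIRE1del PA2, 9.12, 7.63 and 8.27 in WT PA3 and 7.75, 7.34 and 6.82 in HIRE1del PA3. Every PA3 library was above every PA2 library, and the difference was 0.49 ± 0.07 (adjusted p = 2.03e-04) in WT and 0.39 ± 0.07 (adjusted p = 0.00132) in HIRE1del. Col4a6, which pairs with Col4a5 in epithelial and smooth muscle membranes, passed the filter in this table at 0.219, 0.268 and 0.201 RPKM in WT PA2, 0.264, 0.127 and 0.222 in HIRE1del PA2, 0.331, 0.493 and 0.452 in WT PA3 and 0.558, 0.465 and 0.305 in HIRE1del PA3. Its differences were 0.89 ± 0.28 (adjusted p = 0.0246) and 1.11 ± 0.29 (adjusted p = 0.00965), and the WT call was lost without PA2 replicate 1 or 3 or PA3 replicate 2 or 3 (adjusted p up to 0.0879). Col4a3 and Col4a4 did not pass. Col4a3 was at 0.0154 to 0.0317 RPKM in WT PA2 and 0.0269 to 0.0484 in WT PA3, and Col4a4 at 0.0165 to 0.0328 and 0.0576 to 0.0875.

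The multiplexins differed between the arches in opposite directions. Col18a1 was at 73.7, 73.9 and 70.1 RPKM in WT PA2, 78.2, 76.3 and 69.8 in HIRE1del PA2, 97.1, 84.7 and 88.8 in WT PA3 and 93.4, 88.1 and 73.6 in HIRE1del PA3. All WT PA3 libraries were above all WT PA2 libraries, by 0.31 ± 0.08 (adjusted p = 0.00801), and the HIRE1del difference was 0.19 ± 0.08 (adjusted p = 0.0928), which the pairing called (adjusted p = 0.0163). Col15a1 was at 8.5, 10.4 and 9.47 RPKM in WT PA2, 9.93, 7.9 and 9.47 in HIRE1del PA2, 4.4, 5.69 and 6.5 in WT PA3 and 5.07, 5.45 and 7.07 in HIRE1del PA3. It was lower in PA3 without overlap, with differences of -0.77 ± 0.15 (adjusted p = 0.00131) and -0.63 ± 0.15 (adjusted p = 0.00506).

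Type VI chains were low in the arches. Col6a1 was at 3.57, 3.95 and 4.25 RPKM in WT PA2, 3.43, 3.28 and 3.26 in HIRE1del PA2, 3.77, 4.5 and 4.22 in WT PA3 and 3.96, 4.37 and 4.92 in HIRE1del PA3. The HIRE1del arches were apart, with 0.41 ± 0.10 (adjusted p = 0.00674), and the WT arches overlapped, with 0.09 ± 0.10 (adjusted p = 0.536). Col6a3 was at 1.6, 3.11 and 3.03 RPKM in WT PA2, 1.19, 1.11 and 2.77 in HIRE1del PA2, 2.99, 3.7 and 3.68 in WT PA3 and 2.57, 2.29 and 4.03 in HIRE1del PA3. It had no call without the pairing, and with it both genotypes were called, at adjusted p = 0.0105 and 0.000264. Col6a2 was at 1.38, 1.76 and 2.07 RPKM in WT PA2, 1.31, 1.17 and 1.54 in HIRE1del PA2, 1.53, 1.72 and 1.89 in WT PA3 and 1.3, 1.46 and 2.05 in HIRE1del PA3, and its arches overlapped with no call. Col6a4, Col6a5 and Col6a6 did not pass the filter in this table, and Col6a6 was at 0.023 to 0.0845 RPKM in WT PA2 and 0.0211 to 0.0468 in WT PA3.

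Of the FACIT chains, 4 of 8 tested were higher in PA3 in each genotype, and none lower. This was not particular to the class: of 4 tested type IV chains, 3 were higher in WT and 2 in HIRE1del, and none lower. Col9a2 was at 7.71, 10.7 and 8.34 RPKM in WT PA2, 7.83, 7.14 and 7.12 in HIRE1del PA2, 16.5, 18 and 17 in WT PA3 and 18.9, 14 and 15.6 in HIRE1del PA3. The difference of Col9a2 was 0.95 ± 0.12 (adjusted p = 6.15e-05) in WT and 1.13 ± 0.12 (adjusted p = 1.64e-05) in HIRE1del. Its partner Col9a3 was at 0.965, 1.43 and 1.01 RPKM in WT PA2, 0.722, 0.86 and 0.537 in HIRE1del PA2, 2.26, 4.12 and 3.26 in WT PA3 and 2.44, 2.21 and 2.34 in HIRE1del PA3, with differences of 1.5 ± 0.22 (adjusted p = 1.88e-04) and 1.72 ± 0.23 (adjusted p = 1.04e-04). The arches did not overlap for either chain, while cartilage markers summed to 66.3 to 76.7 CPM in WT PA2 and 58.3 to 60.2 in WT PA3, and their part was not tested.

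Col12a1 was at 1.51, 2.29 and 2.24 RPKM in WT PA2, 1.48, 1 and 2.01 in HIRE1del PA2, 3.8, 3.9 and 4.31 in WT PA3 and 2.94, 2.41 and 3.57 in HIRE1del PA3. It too was higher in PA3 without overlap, by 0.99 ± 0.21 (adjusted p = 0.00281) and 0.99 ± 0.22 (adjusted p = 0.00349). Col14a1 was at 0.359, 0.47 and 0.496 RPKM in WT PA2, 0.236, 0.211 and 0.248 in HIRE1del PA2, 0.578, 0.418 and 0.372 in WT PA3 and 0.379, 0.449 and 0.466 in HIRE1del PA3. PA3 was above PA2 in HIRE1del, by 0.9 ± 0.21 (adjusted p = 0.00587), and the WT arches overlapped, with 0.04 ± 0.20 (adjusted p = 0.907). Col20a1 was at 0.264, 0.246 and 0.239 RPKM in WT PA2, 0.307, 0.174 and 0.187 in HIRE1del PA2, 0.655, 0.361 and 0.332 in WT PA3 and 0.378, 0.279 and 0.412 in HIRE1del PA3. The WT arches were apart by 0.84 ± 0.30 (adjusted p = 0.043), a call lost without any 1 PA2 library, without PA3 replicate 1, where it was 0.47, and with limma-voom (adjusted p up to 0.233). Col16a1, Col19a1 and Col22a1 were tested without a call.

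The partners Col8a1 and Col8a2 were called in opposite directions. Col8a2 was at 8.82, 15.5 and 13.4 RPKM in WT PA2, 15.9, 17.2 and 24.2 in HIRE1del PA2, 1.75, 3.79 and 3.73 in WT PA3 and 1.55, 2.33 and 5.48 in HIRE1del PA3. It was lower in PA3 without overlap, with a difference of -2.02 ± 0.39 (adjusted p = 0.00138) in WT and -2.61 ± 0.39 (adjusted p = 2.50e-04) in HIRE1del. Col8a1 was at 0.258, 0.185 and 0.175 RPKM in WT PA2, 0.191, 0.16 and 0.195 in HIRE1del PA2, 0.644, 0.609 and 0.529 in WT PA3 and 0.315, 0.459 and 0.436 in HIRE1del PA3. It was higher in PA3 without overlap, by 1.53 ± 0.23 (adjusted p = 2.01e-04) and 1.14 ± 0.24 (adjusted p = 0.00235). Col10a1 passed the filter in this table, at 0.247, 0.258 and 0.256 RPKM in WT PA2, 0.156, 0.361 and 0.224 in HIRE1del PA2, 0.465, 0.502 and 0.206 in WT PA3 and 0.323, 0.246 and 0.389 in HIRE1del PA3, with no call.

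Among transmembrane chains, Col23a1 was at 29.1, 25.3 and 26.6 RPKM in WT PA2, 35.3, 29.2 and 26.3 in HIRE1del PA2, 11.2, 11 and 12.53 in WT PA3 and 12.7, 14 and 15.3 in HIRE1del PA3. Every PA2 library of Col23a1 was above every PA3 library, and the difference was -1.22 ± 0.10 (adjusted p = 2.13e-06) in WT and -1.11 ± 0.10 (adjusted p = 4.26e-06) in HIRE1del. Col13a1 was at 3, 3.33 and 2.91 RPKM in WT PA2, 2.95, 2.39 and 2.37 in HIRE1del PA2, 2.46, 2.28 and 2.66 in WT PA3 and 2.91, 2.74 and 2.88 in HIRE1del PA3. Its WT difference of -0.32 ± 0.11 (adjusted p = 0.0301) was lost without PA2 or PA3 replicate 1 or 2 and with the filter of 1 CPM in every library (adjusted p up to 0.114). Col25a1 was at 3.76, 4.03 and 3.61 RPKM in WT PA2, 3.98, 4.9 and 4.96 in HIRE1del PA2, 5.11, 5.49 and 4.47 in WT PA3 and 3.66, 4.28 and 4.96 in HIRE1del PA3. PA3 was above PA2 in WT by 0.4 ± 0.11 (adjusted p = 0.0143), a call lost without PA2 replicate 3 or PA3 replicate 2 (adjusted p up to 0.062). Col17a1 was at 0.174, 0.543 and 0.379 RPKM in WT PA2, 0.244, 0.421 and 0.744 in HIRE1del PA2, 0.267, 0.226 and 0.289 in WT PA3 and 0.0934, 0.14 and 0.272 in HIRE1del PA3. Its libraries were scattered, and the HIRE1del difference of -1.47 ± 0.48 (adjusted p = 0.0294) was lost without PA2 replicate 2 or 3 or PA3 replicate 1 or 2 (adjusted p up to 0.151), and was -0.97 without PA2 replicate 3.

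Col28a1 was at 0.213, 0.222 and 0.326 RPKM in WT PA2, 0.115, 0.119 and 0.264 in HIRE1del PA2, 0.039, 0.0291 and 0.0722 in WT PA3 and 0.0458, 0.0428 and 0.0354 in HIRE1del PA3. It was lower in PA3 without overlap, with differences of -2.4 ± 0.43 (adjusted p = 8.18e-04) and -1.99 ± 0.46 (adjusted p = 0.00512). Schwann cell and glial markers summed to 44.2 to 49.5 CPM in WT PA2 and 98.8 to 133 in WT PA3. Erbb3 supplied a mean of 38.1 and 99.5 CPM of these sums, and no other of the 5 exceeded 4.86 and 10.3. The part of such cells in the values of Col28a1 was not tested. Col26a1 was at 29.3, 33 and 28.3 RPKM in WT PA2, 30.4, 27.7 and 31.1 in HIRE1del PA2, 32.6, 36.1 and 35 in WT PA3 and 29.7, 30.7 and 36.8 in HIRE1del PA3. The pairing called its WT difference (adjusted p = 0.0162), and the unpaired fit did not. Col7a1 was at 0.384, 0.791 and 0.676 RPKM in WT PA2, 0.446, 0.303 and 0.528 in HIRE1del PA2, 0.688, 0.646 and 0.513 in WT PA3 and 0.495, 0.398 and 0.564 in HIRE1del PA3, and its groups overlapped with no call.

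Loss of HIRE1 left no collagen gene past the threshold in either arch. In PA2 0 of 34 were called, where 63 genes of all kinds were (0.438%), and in PA3 0 of 34, where 31 were (0.216%). At an unadjusted p under 0.05 there were 8 of 34 collagen genes in PA2 and 5 of 34 in PA3. Of all 14383 genes tested, 1233 and 1400 were under it. DESeq2 called 1 collagen gene in PA2 and 0 in PA3, and limma-voom 0 in both. Of all genes, DESeq2 called 162 and 94, and limma-voom 68 and 39. The median log2 difference of the tested chains was -0.13 in PA2 and -0.10 in PA3, against -0.0083 and -0.0019 for all genes. The 2 arches were tested against each other for the effect of the deletion, and 0 collagen genes differed (0.0487% of all genes were called). At an unadjusted p under 0.05 this test had 4 of 34 collagen genes and 794 of all 14383 genes. Where PA2 and PA3 libraries of the same genotype and number were paired, Col25a1 was called, with the effect higher in PA2 by 0.50 (adjusted p = 0.0374). Of all genes, 26 were called with the pairing and 7 without it.

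**Figure D5:**
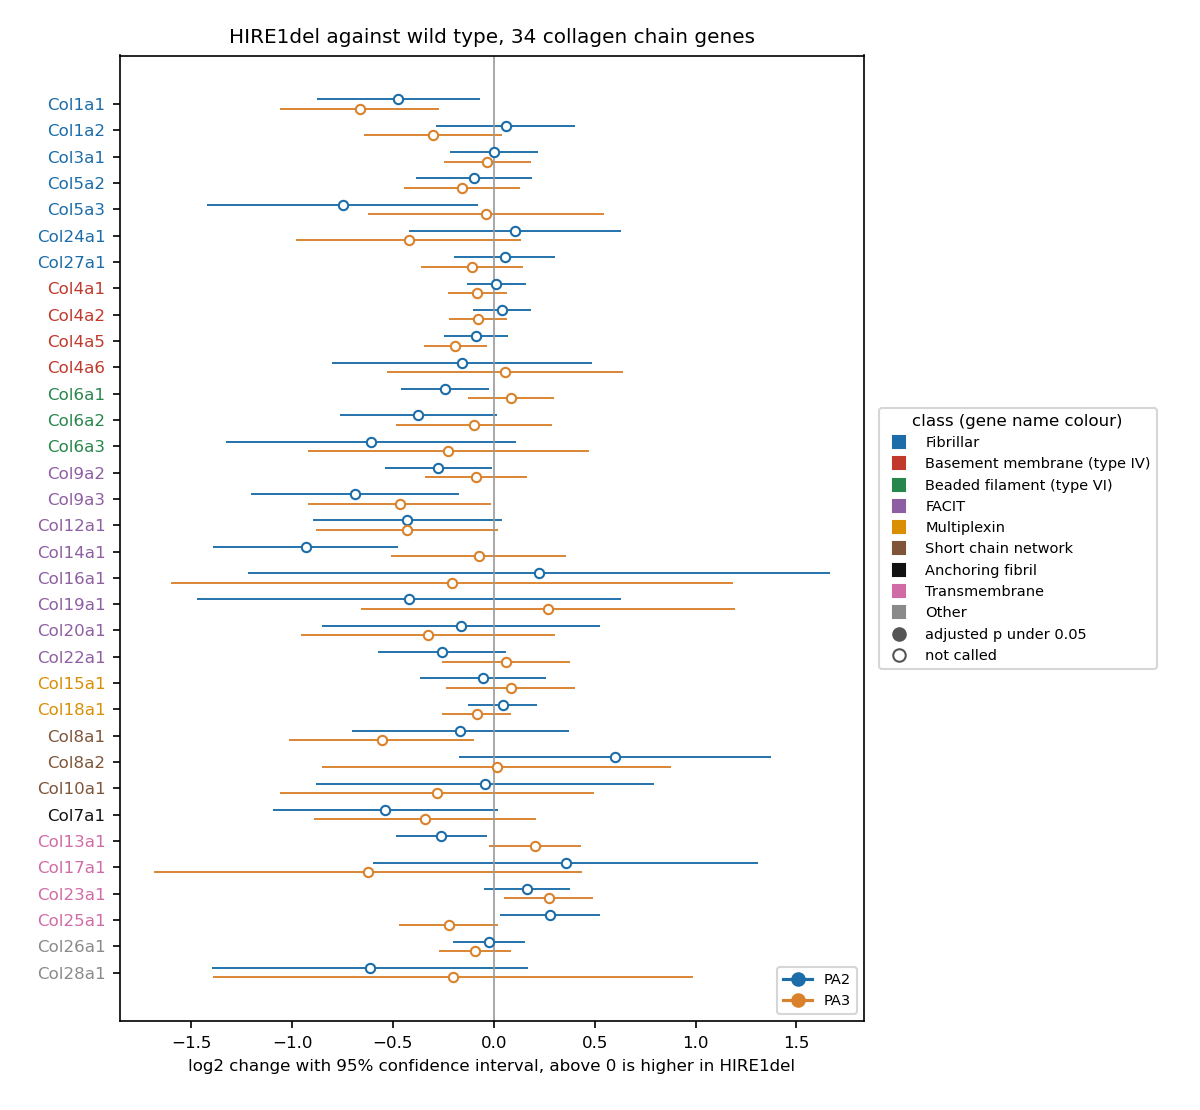
Log2 difference of HIRE1del from WT (horizontal axis; bars are 95% confidence intervals of the fit) for each of the 34 collagen genes tested, in PA2 and in PA3. No gene passed the adjusted threshold, and Col14a1 in PA2 lies farthest to the left, at -0.93.

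The 95% confidence intervals give the range of change that these libraries allow. For Col14a1, every HIRE1del PA2 library was below every WT PA2 library, at 0.211 to 0.248 against 0.359 to 0.496 RPKM, a log2 difference of -0.93 ± 0.21 (adjusted p = 0.0989), with a 95% interval of -1.39 to -0.47. DESeq2 called it, with an adjusted p of 0.0318, and in PA3 the difference was -0.08 ± 0.20. The log2 difference of Col1a1 was -0.47 ± 0.19 (adjusted p = 0.493) in PA2, where 1 HIRE1del library overlapped WT, and -0.67 ± 0.18 (adjusted p = 0.259) in PA3, without overlap. Its intervals were -0.88 to -0.07 in PA2 and -1.06 to -0.27 in PA3. Col9a3 gave -0.69 ± 0.24 (adjusted p = 0.415) and -0.47 ± 0.21 (adjusted p = 0.499). For Col25a1 the signs differed, with 0.28 ± 0.11 (adjusted p = 0.51) in PA2 and -0.22 ± 0.11 (adjusted p = 0.562) in PA3. The abundant chains had narrow intervals around 0: for Col3a1 -0.22 to 0.22 in PA2 and -0.25 to 0.19 in PA3, for Col4a1 -0.13 to 0.16 and -0.23 to 0.06, and for Col18a1 -0.13 to 0.22 and -0.26 to 0.09. Scarce chains had wide ones, as with Col16a1 at -1.22 to 1.67 in PA2. None of the 54 tested processing genes was called either. P3h2, a prolyl 3-hydroxylase, came nearest, at 1.87, 2.01 and 1.84 RPKM in WT PA2, 3.03, 3.59 and 2.56 in HIRE1del PA2, 2.82, 2.9 and 2.65 in WT PA3 and 4.88, 4.51 and 3.44 in HIRE1del PA3, with every HIRE1del library above every WT library of its arch. Its log2 difference was 0.68 ± 0.14 (adjusted p = 0.0701) in PA2 and 0.61 ± 0.14 (adjusted p = 0.154) in PA3.

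The PA2 of E10.5 was measured in both series, with cells sorted in one and no sort stated in the other, and since the tables were scaled apart the values are only set side by side. Col18a1 was at 33.4 to 37.6 RPKM in the sorted cells and 70.1 to 73.9 in WT PA2 of the genotype series. Col15a1 was at 0.279 to 0.422 and 8.5 to 10.4 RPKM, and Col4a1 at 87 to 89.6 and 104 to 118. Lower in the genotype series were Col1a1, at 9.85 to 12.8 against 28.8 to 44.7, Col3a1, at 111 to 130.2 against 216 to 245, and Col6a3, at 1.6 to 3.11 against 7.14 to 14.53 RPKM. Endothelial markers summed to 7.02 to 9.74 CPM in the sorted cells and 273 to 290.0 in WT PA2, and their part in these values was not tested. Series, sort and read layout cannot be told apart here.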

How the data were processed

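RNA was measured in 21 libraries of mouse embryonic cells, 9 of the stage series and 12 of the genotype series. The values are raw counts per gene, deposited by the authors without normalization. The authors aligned reads to GRCm38 with QuasR and counted reads over exons of UCSC known genes with the opposite orientation set, although the kit is unstranded, so reads of overlapping genes on opposite strands cannot be told apart. No columns of values were left unused (0).

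Each table was fitted alone, with 1 mean per group, by edgeR 4.0.16 (TMM scaling, quasi-likelihood test, R 4.3.3) over all genes that reached 1 CPM in 2 or more libraries: 13438 genes (33 collagen genes) in the stage table and 14383 (34) in the genotype table. P-values were adjusted by Benjamini-Hochberg over these, and 0.05 was the threshold. RPKM is TMM-scaled CPM per kilobase of the exonic length in the table. This length can exceed that of the main transcript, so orders of level between genes depend on it. Ratios of chains were tested by exact permutation. Alternatives used DESeq2 1.42.0 and limma 3.58.1, other scalings and filters, blocks and left-out libraries. The fit was tested on simulated data. The collagen genes, classes and other gene lists were chosen with earlier results of these data known.

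The labels call the replicates independent, and replicate numbers recur across groups. PA2 and PA3 libraries of the same genotype and number deviated together (correlation of deviations 0.226 to 0.394 in WT and 0.239 to 0.354 in HIRE1del), and were taken as pairs where a paired value is given. Values per library were given for the 3 most abundant tested chains of each class, every chain called between arches, and the 5 largest rises and falls between stages. Among processing genes the 2 largest called changes of each role from E10.5 to E14.5 were named. P3h2, Col16a1 in its interval and the genes shown side by side across the series were chosen after their values were seen.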

Additional observations from a re-analysis of the deposited data

How the results depend on the processing

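The counts of collagen genes called kept within 1.5 times of the main count in 71 of 73 alternatives other than left-out libraries. With the DESeq2 test 1 collagen gene was called for HIRE1del against WT in PA2 in place of 0. That gene was Col14a1, and 162 genes of all kinds were called in place of 63. For the difference of the deletion effect between arches, the replicate block by genotype and number gave 1 gene in place of 0, Col25a1. Of all genes that block called 26 in place of 7. With the replicate number alone as a block, PA3 against PA2 gave 20 collagen genes in WT and 19 in HIRE1del, and the collagen counts of the stage and genotype comparisons were as before. Of all genes, that block called 5615 and 5156 between the arches, where the main fit called 5252 and 4806. For HIRE1del against WT it called 105 genes of all kinds in PA2 and 54 in PA3, in place of 63 and 31. For the difference of the deletion effect between arches it called 12 in place of 7. With the pairs of arches as the block the arch comparisons gave 23 and 21 collagen genes, and 6098 and 5625 of all genes. Numbers across genotypes (correlation -0.144 to 0.257 in the same arch and -0.219 to 0.301 between arches) and stages (-0.324 to 0.221) did not deviate together in every pair, and those samples share only a number. Leaving out single libraries kept all 63 counts of collagen genes within that margin. For processing genes, counted under the same alternatives in a step chosen after seeing the data, PA2 gave 1 gene in place of 0 with no filter, with the DESeq2 test and with the replicate block, and PA3 gave 1 with the DESeq2 test and the replicate block. Without single libraries these counts ranged from 0 to 1, the 1 coming without HIRE1del replicate 3 of the arch concerned. In each case the gene was P3h2. The causes were not tested.

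Of 186 log2 changes, none reversed under any alternative. Most were of collagen genes called in a comparison, or at an unadjusted p under 0.05 in a test of the deletion. The rest were of named processing genes and Hoxa2. Changes chosen this way lie away from 0, so a change of sign was unlikely from the start. Outside left-out libraries 1441 values kept their side of the threshold, 13 lost it and 7 gained it, and without single libraries 1155 kept it, 55 lost it and 2 gained it. Differences of chain ratios between groups moved by less than the spread between replicates without single libraries (120 values). With 3 libraries a group, leaving 1 out cannot move a mean by more than that spread, so this outcome was fixed in advance. The 7 shares of counts without Rn45s also moved by less than the spread between replicates. Lengths of the longest transcript shift a chain ratio by the same amount in each library, so they cannot change the differences of ratios between groups. The level of the ratio moved by 0.032 to 1.036 on the log2 scale over the 7 pairs, and that of Col1a1 to Col1a2 at E10.5 went from -0.83 to -1.87. In the stage series Col11a2, Col6a4, Col6a5, Col4a3, Col4a4, Col4a6 and Col10a1 were left out by the filter on low counts. With no filter 34 collagen genes were called in the first stage interval in place of 31, and 9589 genes of all kinds in place of 9242. Col11a2 had at most 2 counts in any library, which limits what this depth can show of it.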
